A study of Mus musculus with 4 samples.

Results

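The genes described here are 9 markers of granulocyte precursors: Mpo, Ela2 (now named Elane), Prtn3, Ctsg, Ngp, Camp, Ltf, S100a8 and S100a9. They were found by gene name among the gene probes of the arrays, where they account for 9 of 28786 genes and for 10 of 41174 probes, since Ltf has 2 probes. Liver RNA of C57BL/6J mice, an inbred laboratory strain, was compared between food deprivation (FD) and control, in the fetus and in the mother, on dual-colour Agilent arrays. The 4 conditions were fetal FD liver, fetal control liver, maternal FD liver and maternal control liver. Each stage had 2 arrays: array 1 carried FD RNA in the red dye Cy5 and control RNA in the green dye Cy3, and array 2 carried them with the dyes swapped. The series' design text says that RNA of several animals was pooled per condition and hybridised with swapped dyes, while the labels number pooled samples 1 and 2, and the number goes with the dye orientation. Both arrays of a stage were taken to carry the same pools, which the labels do not settle. On that reading each condition is 1 sample, and for that reason no test was made. How long food was withheld, and at which stage of gestation, is not stated in the labels.

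Granulocytes arise from dividing myeloid precursors that pack antimicrobial proteins into granules in a fixed order as they mature. Primary (azurophil) granule proteins are made first, at the promyelocyte stage, and secondary (specific) granule proteins later, at the myelocyte stage, while the calcium-binding pair S100A8 and S100A9 fills the cytosol of maturing and mature neutrophils. Before birth the liver is a main site of blood formation, and this role passes to the bone marrow around birth. The transcription factors PU.1 and C/EBP family members are known to act on granule genes.

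The arrays measured each gene with 60-base probes, which are shown for the members where they lie in the protein-coding part of the mRNA. The positions are those of the array design, in mouse genome mm7 (NCBI build 35). The Camp probe (chr9:109544107-109544166, minus strand) covers the part of the mRNA that encodes the antimicrobial peptide. The S100a8 probe (chr3:90800058-90800117, plus strand) and the Ela2 probe (chr10:79668034-79668093, plus strand) each match 1 unbroken stretch. The Prtn3 probe (chr10:79661141-79661957, plus strand) and the Ngp probe (chr9:110119702-110120250, plus strand) span 817 and 549 bases of genome with their 60 bases, so they cross introns. Of the Ltf probes, the brighter one (chr9:110738071-110738130, plus strand) stood for the gene, and the other (chr9:110733462-110736512, plus strand) gave an independent reading of the same mRNA. All are printed whole, 5′ to 3′.
Camp probe: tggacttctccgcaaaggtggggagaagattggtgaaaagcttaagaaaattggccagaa
S100a8 probe: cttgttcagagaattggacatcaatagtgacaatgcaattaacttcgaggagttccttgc
Ela2 probe: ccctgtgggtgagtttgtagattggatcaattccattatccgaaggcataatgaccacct
Prtn3 probe: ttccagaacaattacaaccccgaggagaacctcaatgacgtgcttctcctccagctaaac
Ngp probe: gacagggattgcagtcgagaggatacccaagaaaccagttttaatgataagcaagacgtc
Ltf brighter probe: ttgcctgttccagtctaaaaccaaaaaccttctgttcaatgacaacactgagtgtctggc
Ltf other probe: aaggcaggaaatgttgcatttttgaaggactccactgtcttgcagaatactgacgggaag

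All 9 members had a promoter entry in RefSeq's table for assembly GRCm38.p6, and the 250 bases before each start were searched on both strands for 3 motifs chosen after these promoters had been seen. The letters AGGAAGT, a core bound by PU.1 and other ETS factors, stood in 5 of 9 member promoters (Mpo, Ela2, Prtn3, Ctsg and S100a8) and in 7.7% of 32851 promoters. The letters TTGCNNAA, a form of the C/EBP motif, stood in 3 of 9 (Ngp, Ltf and S100a9) and in 9.6% of promoters. TATAAA stood in 2 of 9 (Ctsg and S100a8) and in 12.4%. All 4 primary granule genes and S100a8 held the first motif. Ngp, Ltf and S100a9 held the second, and the secondary granule gene Camp held neither of them. These matches are a description of the letters and not of binding. The windows below show up to 30 bases on either side of a match, with the match in capitals, on the strand of the gene. AGGAAGT began 223 bases before the start of Mpo (chr11:87793534-87793597, plus strand), 84 before Ela2 (chr10:79886198-79886264, plus strand), 94 before Prtn3 (chr10:79879543-79879609, plus strand) and 206 before Ctsg (chr14:56102744-56102810, minus strand). It lay on the opposite strand, 172 bases before the start, in S100a8 (chr3:90668869-90668935, plus strand). TTGCNNAA began 138 bases before the start of Ngp (chr9:110419640-110419707, plus strand) and, on the opposite strand, 75 before Ltf (chr9:111019187-111019254, plus strand). Ngp held a further match on the opposite strand 11 bases before its start. The motif began 236 bases before S100a9 (chr3:90695920-90695971, minus strand).
Mpo: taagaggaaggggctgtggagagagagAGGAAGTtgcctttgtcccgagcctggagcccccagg
Ela2: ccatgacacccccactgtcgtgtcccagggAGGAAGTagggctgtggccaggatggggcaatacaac
Prtn3: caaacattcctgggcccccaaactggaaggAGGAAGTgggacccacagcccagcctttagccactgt
Ctsg: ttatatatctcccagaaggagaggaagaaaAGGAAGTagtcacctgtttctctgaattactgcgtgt
S100a8: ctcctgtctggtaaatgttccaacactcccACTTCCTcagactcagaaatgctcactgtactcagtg
Ngp: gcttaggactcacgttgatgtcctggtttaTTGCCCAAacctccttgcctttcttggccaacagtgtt
Ltf: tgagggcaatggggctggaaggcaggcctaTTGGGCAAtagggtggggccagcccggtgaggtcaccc
S100a9: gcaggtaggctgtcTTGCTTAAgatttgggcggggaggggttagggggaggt

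Across the arrays, 53.2% to 69.7% of gene spots per array and dye were well above background by the scanner software's own call, and none was saturated. Net signals, the mean brightness of a spot minus its local background, were below 8.7 to 11.6, by array and dye, in all but the top 2.5% of the 153 negative control spots, and gene spots were brighter in red (median 86.8 to 113.5 before background subtraction) than in green (61.5 to 69.6). The number of arrays limits the precision of every value. The values below are the net signal, in scanner units, and the log2 ratio after background correction and normalisation. A gene counted as measured in a comparison when its probe was well above background on both arrays in at least one of the pools compared. A call, higher or lower, needed a mean difference of 2-fold or more and at least 1.5-fold the same way on each of the 2 arrays or dye orientations.

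The granulocyte precursor genes were expressed at far higher levels in fetal than in maternal control liver. All 7 members with values in both dye orientations were called higher in the fetus, where 1847 of 18086 measured genes (10.2%) were called higher and 1656 (9.16%) lower. The mean log2 ratio of the 7 members lay between 1.53 for Prtn3 and 7.23 for Ltf, with a median of 5.64, against -0.02 over all measured genes. Ela2, Ngp and Camp entered this comparison through the fetal pool alone, so they could only be higher there. The remaining members, Ctsg and S100a8, had spots flagged as outliers on fetal array 2, and they were 5.28 and 6.78 higher on the log2 scale in the orientation that remained. In a tissue RNA sample, a lower level can come from fewer cells of a type or from less RNA per cell, and these cannot be told apart.

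**Figure D1:**
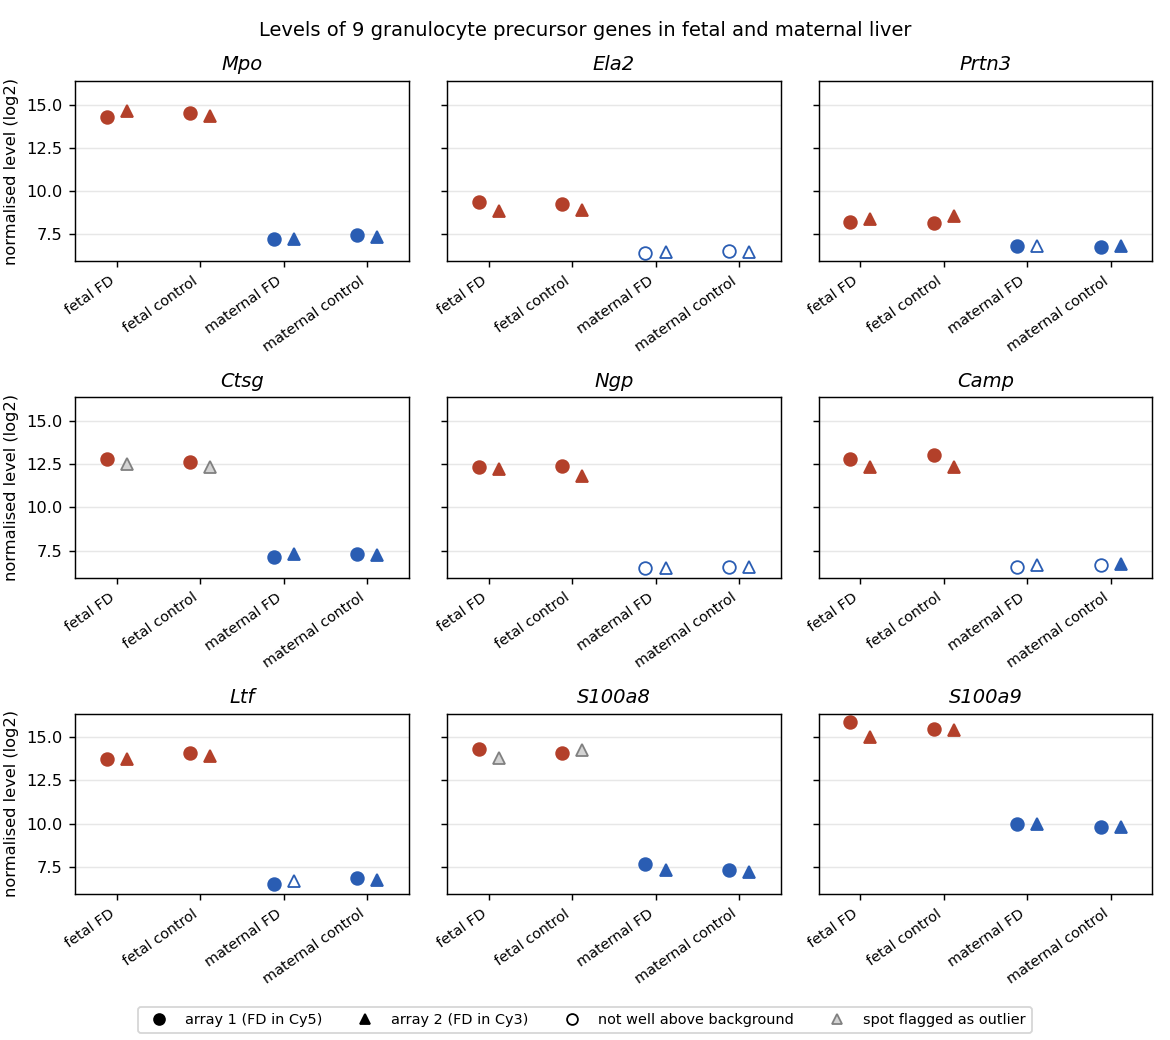
Normalised level (log2, vertical axis) of each of the 9 genes in fetal FD, fetal control, maternal FD and maternal control liver; circles are array 1 and triangles array 2. Open symbols were not well above background and grey symbols were flagged as outliers; in every panel the fetal points lie above the maternal ones, and FD and control points of a stage lie close together.

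Mpo encodes myeloperoxidase, the haem enzyme of primary granules that makes hypochlorous acid. Its net signals in fetal liver were 37415.8 (FD, Cy5) and 11126.7 (control, Cy3) on array 1, and 13271.5 (FD, Cy3) and 44147.5 (control, Cy5) on array 2. In maternal liver they were 79.2 (FD, Cy5) and 39.3 (control, Cy3) on array 1, and 24.2 (FD, Cy3) and 102.6 (control, Cy5) on array 2. All 4 fetal signals exceeded all 4 maternal ones, and the maternal ones still lay above that limit of the negative control spots. The fetal over maternal control ratio was 7.10 in one dye orientation and 6.98 in the other, a 131-fold difference that ranked 11 of 18086 genes. A further probe, described in the files by an older database entry for the myeloperoxidase gene and not named Mpo there, gave control ratios of -0.51 and -0.61 and did not follow the Mpo probe.

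The remaining primary granule members encode serine proteases. Ela2 (neutrophil elastase) had net signals of 1135.4 and 270.2 in fetal FD liver and 359.2 and 925.8 in fetal control liver, arrays 1 and 2 in turn. In maternal liver its spots gave 1.4 and 6.4 under FD and 8.6 and 5.7 in controls, none of them well above background. The fetal control level was therefore at least 5.79-fold higher, with ratios of 2.71 and 2.42. Prtn3 (proteinase 3) gave 415.3 and 180.9 in fetal FD liver and 139.1 and 666.7 in fetal control liver. Its maternal signals were 32.4 and 17.9 under FD and 14.1 and 37.2 in controls, low but well above background on 3 of these 4 readings. Its control ratios of 1.36 and 1.71 came to 2.89-fold, the smallest difference among the members, at rank 1002 of 18086. Ctsg (cathepsin G) gave 12880.9 and 3254.6 in fetal FD liver and 3243.3 and 10880.1 in fetal control liver, against 68.2 and 33.1 in maternal FD liver and 34.1 and 90.8 in maternal control liver. With the flagged fetal spot kept, its control ratios were 5.24 and 5.07, which is 35.7-fold.

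The secondary granule members were at or near background in the mother. Ngp, neutrophilic granule protein, is related to the cystatins and cathelicidins. It gave 9581.0 and 2831.2 in fetal FD liver and 2862.2 and 7652.3 in fetal control liver. Its maternal spots gave 7.9 and 9.1 under FD and 9.9 and 9.9 in controls, all below that limit of the negative control spots. Its fetal control level was at least 46.3-fold higher. Camp encodes cathelicidin, the precursor of an antimicrobial peptide. It gave 13320.4 and 2987.8 in fetal FD liver and 4290.0 and 10846.0 in fetal control liver, against 11.5 and 10.4 in maternal FD liver and 13.6 and 28.0 in maternal control liver. Among the maternal readings only the control on array 2 was well above background, and the control ratios were 6.33 and 5.60, or 62.5-fold. Ltf encodes lactoferrin, an iron-binding protein. Its brighter probe gave 26629.0 and 7695.8 in fetal FD liver and 8506.2 and 34360.5 in fetal control liver, against 12.0 and 12.2 in maternal FD liver and 19.3 and 28.0 in maternal control liver. Its control ratios of 7.24 and 7.21 came to 150-fold, rank 8 of 18086, and its other probe gave 6.90 and 6.66, or 110-fold.

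S100a8 and S100a9 encode the subunits of calprotectin, a cytosolic protein that binds calcium and withholds metal ions from microbes. S100a8 gave 39324.5 and 7850.2 in fetal FD liver and 8542.6 and 43444.7 in fetal control liver. Its maternal signals were 141.0 and 39.0 under FD and 30.6 and 82.8 in controls. With the flagged fetal spot kept, its control ratios were 6.75 and 7.06, or 120-fold. S100a9 gave 109322.7 and 17074.1 in fetal FD liver and 18364.8 and 97184.0 in fetal control liver, against 1406.1 and 407.2 in maternal FD liver and 364.8 and 1185.8 in maternal control liver. All of its maternal readings were well above background, and its control ratios of 5.66 and 5.62 came to 49.9-fold, at rank 36.

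The size of these differences depended on how dim maternal signals were treated, while the direction did not. The normalised values carry an offset of 50 that shrinks ratios against dim spots. With an offset of 16 the control difference was 168-fold for Mpo, 223-fold for Ltf, 97.1-fold for Camp, 3.88-fold for Prtn3, at least 78.6-fold for Ngp and at least 9.45-fold for Ela2. With the scanner software's processed signals it was 286-fold for Mpo, 686-fold for Ltf, 452-fold for Camp, 12.1-fold for Prtn3, at least 465-fold for Ngp and at least 57.9-fold for Ela2. S100a9, whose maternal signals were well above background, moved little, at 52.1-fold and 56.2-fold.

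**Figure D2:**
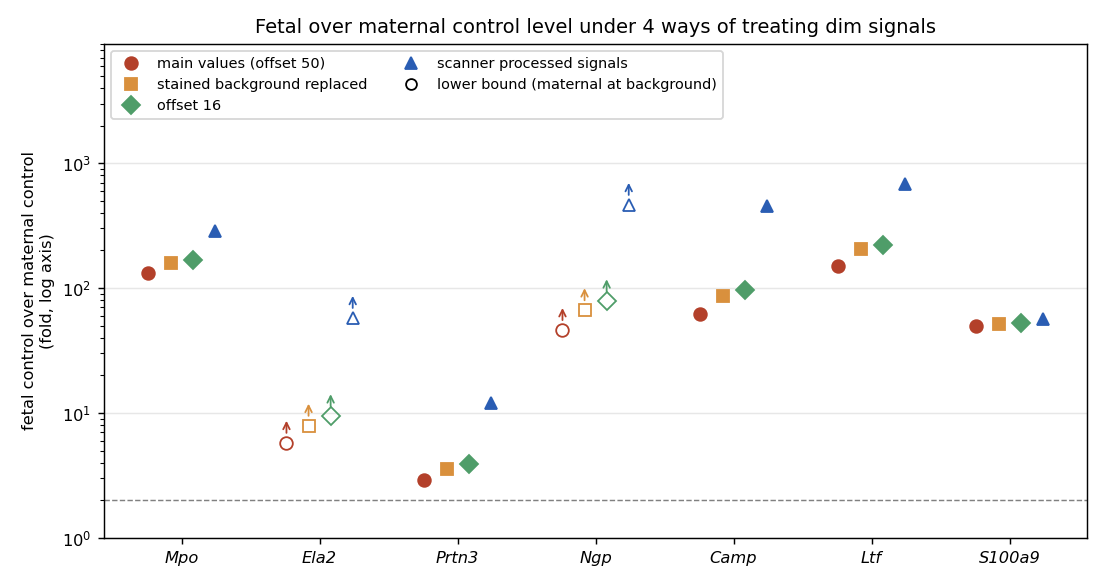
Fetal control over maternal control level (fold, logarithmic vertical axis) of the 7 genes measured in both dye orientations, under the main values, a replaced stained background, an offset of 16 and the scanner software's processed signals. S100a9 stays near 50-fold in every setting, while the lower bounds of Ela2 lie between 5.79-fold and 57.9-fold; open symbols with arrows are lower bounds and the dashed line marks 2-fold.

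The same comparison between FD pools gave similar values. All 7 members with both orientations were called higher in fetal than in maternal FD liver, where 10.3% of 17895 measured genes were called higher, and their median log2 ratio was 5.76. Of these only Mpo and S100a9 were well above background on both maternal FD arrays, and the other 5 entered through the fetal pool alone. The fetal FD level was 150-fold higher for Mpo (7.07 and 7.39), 143-fold for Ltf (7.25 and 7.07), 44.1-fold for S100a9 (5.89 and 5.04) and 2.77-fold for Prtn3 (1.37 and 1.57). It was at least 62.7-fold higher for Camp, at least 54.3-fold for Ngp and at least 6.26-fold for Ela2. With flagged spots kept, Ctsg was 42.4-fold and S100a8 94.0-fold higher. The FD and control comparisons rest on the same 4 arrays and are not independent of each other.

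No member was called changed by food deprivation in fetal liver. Of the 9 members 7 were measured and 0 were called, where 132 of 18055 measured genes (0.731%) were called in either direction. At that share the absence of calls among 7 genes is no result about the members. Their mean log2 ratios of FD over control lay between -0.24 and 0.19 with a median of 0.00, and the central 95% of all measured genes lay between -0.39 and 0.50. With each array centred on its median in place of the intensity-dependent loess fit, the members' median was 0.24 and all 7 lay above 0. In that setting the median of all genes was 0.09 and 12364 of 18055 genes lay above 0. Still no member was called.

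Among primary granule genes, Mpo gave -0.27 on array 1 and 0.30 on array 2, Ela2 gave 0.11 and -0.04, and Prtn3 gave 0.06 and -0.12. The signs of the arrays were opposite in each case. Ctsg gave 0.17 on array 1, and 0.14 on array 2 with its flagged spot kept. Among secondary granule genes, Ngp gave -0.03 and 0.42, Camp gave -0.20 and 0.02, and Ltf gave -0.31 and -0.16. Ltf was the one measured member below 0 on both arrays with the main values, and its other probe gave -0.33 and -0.33. That is a mean of 1.18-fold lower in FD for the brighter probe, short of the call.

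S100a9 gave 0.41 and -0.41 and S100a8 gave 0.20 on array 1 and, with its flagged spot kept, -0.46 on array 2. For S100a9 the ratio changed sign with the dye swap, and red exceeded green by 0.41 averaged over both fetal arrays. All 18055 measured genes had a median of 0.01 and an SD of 0.10 for this dye difference. It was at least as large in 50 genes. Mpo and Ngp leaned the other way in the fetus, by -0.29 and -0.23. In the mother the dye difference of S100a9 was 0.00. Dye orientation and pool number go together, so a dye effect and a difference between pools cannot be told apart. The mean over the swap was used as the response.

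**Figure D3:**
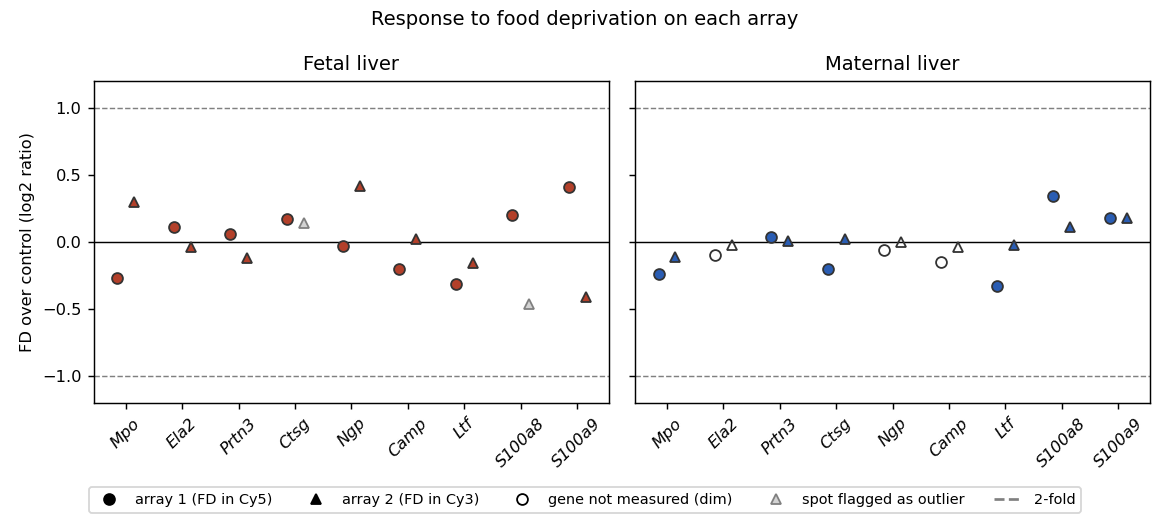
Log2 ratio of FD over control on each array (circles, array 1; triangles, array 2) for the 9 genes in fetal liver (left) and maternal liver (right). All points lie between the dashed lines at 2-fold, and the arrays of S100a9 in the fetus lie at 0.41 and -0.41; open symbols mark genes too dim to count as measured in the mother and grey symbols flagged spots.

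In maternal liver 6 members were measured and 0 were called, where 555 of 16148 measured genes (3.44%) were called in either direction. With so few members, the absence of calls is no result about them here either. Mpo gave -0.24 and -0.11, Prtn3 0.04 and 0.01, Ctsg -0.20 and 0.02, and Ltf -0.33 and -0.02. S100a8 gave 0.34 and 0.11, and S100a9 gave 0.18 and 0.18, so both calprotectin genes lay above 0 on both arrays, by at most 1.17-fold on average. Ela2, Ngp and Camp were not well above background on both arrays in either maternal pool and have no maternal response. The offset holds such ratios near 0: with the scanner software's processed signals Ltf gave -0.92 and -1.50, which would be called lower, and Camp gave -1.52 and -1.66 without counting as measured. The net signals behind these values, 10.4 to 28.0, were low: in the mother all but the top 2.5% of negative control spots lay below 10.4 to 11.6. S100a9, with maternal net signals of 364.8 to 1406.1, gave 0.32 and 0.18 in that setting. Members well above background on every maternal reading but less bright also moved with processed signals. Mpo gave -0.37 and -0.64 and S100a8 gave 0.88 and 0.34, both short of the call, while Ctsg gave 0.00 and -0.11.

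The responses of fetus and mother were also compared directly, on arrays of equal dye orientation. The 4 members measured at both stages (Mpo 0.19, Prtn3 -0.06, Ltf -0.06 and S100a9 -0.18, fetal minus maternal mean log2 ratio) were all uncalled, where 466 of 15598 measured genes (2.99%) were called. Among 4 genes the absence of calls at that share is no result about them. The orientations gave -0.03 and 0.41 for Mpo and 0.23 and -0.58 for S100a9, so their spread exceeded the mean difference.

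Other genes of the granulocyte lineage were also higher in fetal control liver. Of 11 measured genes of a primary granule list, 10 were called higher and 1 lower (median 1.87). Ms4a3, a membrane protein of myeloid progenitors, was at least 17.7-fold higher, and Slpi, a protease inhibitor, and Plac8 had mean log2 ratios of 2.81 and 2.77. Ctsc, the protease that activates the granule serine proteases by trimming their propeptides, was called lower at -1.30 (-1.48 and -1.11). All 18 measured genes of a secondary and tertiary granule list were called higher (median 2.66). They were led by Chil3 (6.25), a chitinase-like protein, Anxa1 (4.20), annexin A1, and the collagenase gene Mmp8, at least 17.7-fold. These counts include genes that entered through the fetal pool alone, 3 in the first list and 9 in the second.

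Markers of mature neutrophils were higher as well, so the 9 genes were not accompanied by precursor markers alone. Of 20 measured genes 16 were called higher and 0 lower (median 1.64), with 11 of the 20 entering through the fetal pool alone. The shares over all measured genes were 10.2% higher and 9.16% lower. The largest differences in this list were those of stefin A genes. These protease inhibitor genes were Stfa3 (7.03), Stfa2l1 (at least 127-fold) and Stfa2 (at least 41.5-fold). Cxcr2, a chemokine receptor of circulating neutrophils, was at least 2.48-fold higher, and Csf3r, the receptor for granulocyte colony-stimulating factor, was not called at 0.76.

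Regulators of granulopoiesis differed among themselves. For comparison, 10.2% of all measured genes were called higher and 9.16% lower. Of 11 measured, 3 of them through the fetal pool alone, 5 were called higher and 0 lower (median 0.54): Myb, a factor of dividing progenitors, at least 15.9-fold, Gfi1, a repressor needed for neutrophil formation, at least 4.12-fold, and the receptor subunits Csf2ra (1.71) and Csf2rb2 (1.51) and the factor Irf8 (1.44). Of the C/EBP and PU.1 factors, Cebpa (-0.55), Cebpb (-0.68) and Spi1 (0.19), which encodes PU.1, were not called. Cebpe, also in the list, was not among the genes called. Cebpa and Cebpb are also expressed by hepatocytes.

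Genes of several other blood lineages were also called higher, and their part in the result was not tested. All 19 measured erythroid genes were called higher (median 3.58), as were 10 of 11 megakaryocyte genes (1.82), 5 of 12 eosinophil, basophil and mast cell genes (0.79), 5 of 10 stem and progenitor genes (1.01) and 7 of 15 lymphoid genes (0.81, with 1 lower). Among the erythroid genes 10 of the 19 entered through the fetal pool alone. So did 4 of the 11 megakaryocyte genes and 6 of the 12 eosinophil, basophil and mast cell genes. The same held for 3 of the 10 stem and progenitor genes and 4 of the 15 lymphoid genes. Entry of this kind favours a call of higher. The largest differences were those of Slc4a1 (7.81), the anion exchanger of red cells, Trim10 (5.68) and Kel (at least 67.2-fold) among erythroid genes, Pf4 (5.32), Ppbp (5.29) and Treml1 (4.98) among megakaryocyte genes, and Vpreb1 (4.42), Cd79b (2.73) and Igll1 (at least 6.03-fold) among lymphoid genes, where Dntt was lower (-3.36). The stem and progenitor genes called were Tal1 (5.46), Lmo2 (2.97), Cd34 (1.77), Cd48 (1.19) and Mycn (at least 2.34-fold). Of 20 monocyte and macrophage genes 3 were called higher and 2 lower (0.44), near the shares over all genes of 10.2% and 9.16%. The eosinophil granule genes Prg2 (5.96), Ear1 (3.18), Epx (at least 4.17-fold) and Prg3 (at least 3.82-fold) and Hdc (1.19), which makes histamine, were called, while the mast cell protease genes Cma1 (0.29) and Mcpt4 (-0.03) were not. S100A8 and S100A9 are also made by monocytes, and of the monocyte and macrophage list F13a1 (3.54), Marco (2.32) and Fcgr1 (1.22) were called higher and Vsig4 (-1.95) and Cd163 (-2.10) lower. The hepatocyte markers followed the labels: 5 of 7 fetal hepatocyte markers were called higher in the fetus and 1 lower, and 7 of 10 adult hepatocyte markers were called lower. H19 (8.05), Igf2 (7.89), Afp (6.90), Gpc3 (6.11) and Dlk1 (at least 145-fold) were higher and Cyp3a16 (-2.75) lower in the fetal list, and Mup1 (-9.24), Cyp1a2, which was not well above background in fetal control liver, and Ugt2b1 (-4.07) led the adult list. All 20 cell cycle genes were called higher (3.23), led by Mki67 (5.55), Ccna2 (4.56) and Mcm5 (4.43). Of 17 acute phase genes Lcn2 (2.71), also a secondary granule gene, was called higher and 9 lower (-1.35), led by Orm2 (-6.24), Orm1 (-5.88) and Saa2 (-5.35). The medians of the blood lists kept their sign under every scaling tried, including median scaling between arrays, which moved the median of all genes to 0.12.

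**Figure D4:**
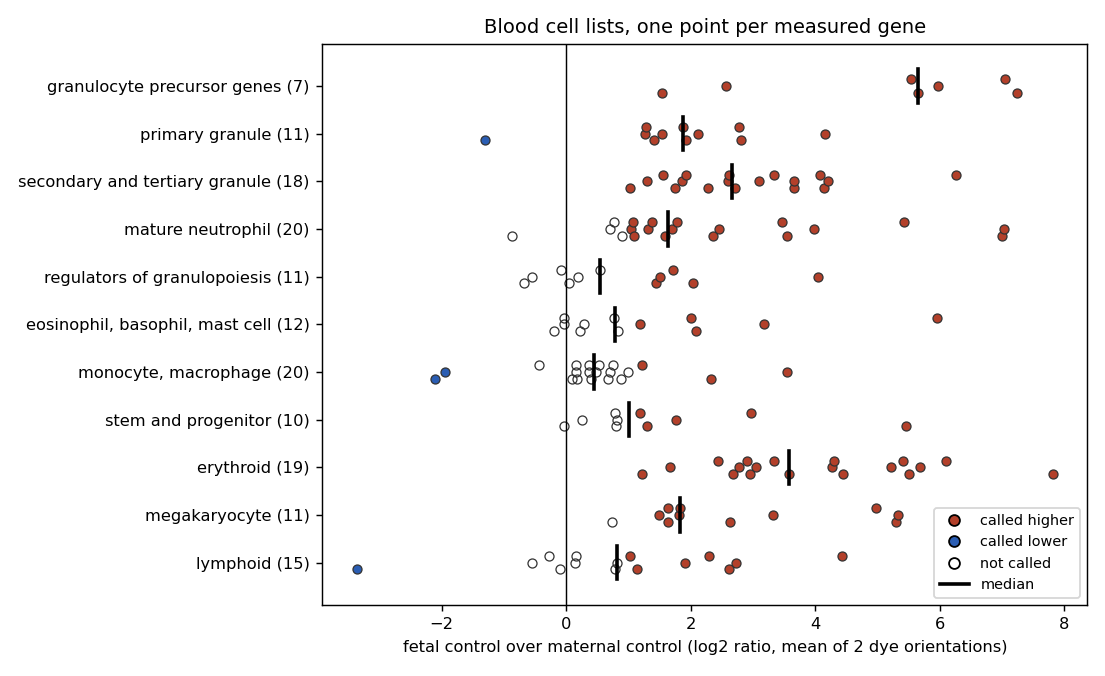
Fetal control over maternal control level (log2 ratio, mean of both dye orientations, horizontal axis) of each measured gene in the member list and 10 lists of blood cell genes; the number in brackets is the number measured and the bar is the list's median. With the main values plotted, the members' median of 5.64 lies right of every other list shown. With the scanner software's processed signals the erythroid median was 8.4, against 8.16 for the members. Similar single values are reached by the erythroid (7.81), mature neutrophil (7.03) and secondary and tertiary granule (6.25) lists. The eosinophil, basophil and mast cell (5.96), stem and progenitor (5.46) and megakaryocyte (5.32) lists reach such values too.

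Under food deprivation no gene of the primary granule, secondary and tertiary granule, mature neutrophil or regulator lists was called in the fetus, where 0.731% of all genes were called, so the absence of calls in lists of this size is no result about them. The medians were -0.01 (11 measured), 0.15 (18), 0.09 (20) and 0.02 (11), and with median centring they were 0.23, 0.35, 0.29 and 0.19, where the median of all genes was 0.09. Of all 18055 measured genes 9248 lay above 0, and 12364 did with median centring. The secondary and tertiary granule genes lay above 0 in 16 of 18 cases, led by Chil3 (0.32 and 0.62), and in 18 of 18 with median centring. The erythroid genes lay above 0 in 1 of 19 (median -0.28). With median centring 10 of 19 did, and their median of 0.01 was still below that of all genes. These shifts stayed below the size of a call.

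In the mother, where 3.44% of all genes were called, 2 of 8 measured primary granule genes fell: Ctsc (-1.22 and -1.38) and Serpinb1a (-1.18 and -1.18), an inhibitor of granule serine proteases. The list's median was -0.35. None of 10 measured secondary and tertiary granule genes and none of 10 mature neutrophil genes was called, with medians of 0.00 and -0.01. At the share over all genes, the absence of calls in lists of this size is no result about them. Among 8 regulators Cebpb rose (1.08 and 1.13), and Cebpa was not called (-1.01 and -0.09). The monocyte and macrophage list had a median of -0.48, with Adgre1 (-1.16 and -1.09), which encodes a macrophage surface marker, and Cd5l (-1.01 and -1.05) lower. Ctsc and Cebpb are also expressed outside granulocytes.

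The genes closest to the members' mean profile over 6 values (both arrays of each response and both orientations of the control ratio) are given next. The mean was taken over the 7 members measured for the control level, so without Ctsg and S100a8. It includes maternal responses of Ela2, Ngp and Camp, which were too dim to count as measured. Treml1 and Ppbp are in the megakaryocyte list, Tspo2 is in the erythroid list and the other 5 are in no list. By root mean square difference they were Slc38a5 (0.13), an amino acid transporter, Treml1 (0.14), a platelet receptor, LOC383229 (0.17), described in the files as similar to alpha-globin, Tspo2 (0.18), Ppbp (0.18), a platelet chemokine, Mgst2 (0.20), Lyl1 (0.21), a blood cell transcription factor, and Bex3 (0.23). The members themselves lay between 0.33 (Ngp) and 2.05 (Prtn3) from that mean. The 8 genes were picked for their small difference from it, so their being closer than the members is no result.

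In the gene order of GRCm38.p6, Prtn3 and Ela2 lie next to each other, as do S100a8 and S100a9. Over all measured genes 10.2% were called higher in fetal control liver, so calls among a few neighbours are no result about them. Of the measured protein-coding neighbours that are not members, Tspoap1 beside Mpo (1.39) and Ccrl2 beside Ltf (1.57) were called higher there. The others were not called: Lpo beside Mpo, a related peroxidase, was -0.87, Rtp3 beside Ltf -0.32, Cdc25a and Nme6 beside Camp 0.78 and 0.25, Klhl18 and Ptpn23 beside Ngp -0.11 and 0.03, Plppr3 beside Prtn3 0.49 and Mcpt8 beside Ctsg 0.76.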

How the data were processed

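Per the file headers, each deposited scanner file gives linear intensity values for every spot (mean brightness and median local background in both dyes) and processed intensity values with a log10 ratio of red over green, background-subtracted and dye-normalised by Agilent Feature Extraction 9.5.1.1 (version 9.5.3.1 in the submitters' processing notes). The deposited series table, treated as a score, matched red divided by green processed signal (correlation at least 0.9999); its column medians were -0.92, 0.94, -0.88 and 0.88, and the meaning of its sign stays unknown. Positions and the genome mm7 come from the array design in the file headers.

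In R 4.3.3, limma 3.58.1 gave the main values: normexp background correction with an offset of 50, loess within arrays with control spots at weight 0, and Aquantile between arrays for levels, all on the log2 scale. Spots flagged as outliers (215 to 257 gene spots per array) were left out and spots of a probe averaged. The brightest probe measured stood for a gene. Of 41174 probes, 22951 were named through their accession in RefSeq's table (GRCm38.p6), 5141 differently from the files, and 18223 kept the file's name. FD and control values were compared within arrays; fetal and maternal levels were compared within a dye. A fold is a bound ("at least") where neither maternal array was well above background; a dim signal was then raised, where lower, to the lowest signal well above background on its array. The 2 arrays of a stage were taken to carry the same pools, which the labels do not settle, and counted as 1 replicate, so no test was made. The correlation of the arrays across genes was 0.67 for the fetal and 0.86 for the maternal response and 0.96 for the control level.

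The members and the 14 other gene lists were chosen with earlier results of these data known. Named were all members, of each list the called genes or, with over 6 called, the 3 largest in each direction, and the 8 genes nearest to the members' mean profile. For lists outside the granulocyte, regulator and macrophage lists this was done for the control level only. Other genes named were chosen after their values were seen.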

Additional observations from a re-analysis of the deposited data

Results flagged for a closer look

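For the items below, both fetal arrays lay on one side of 0 and both maternal arrays on the other, read as the array medians for lists. In each case the difference between the stages was not tested, and the values are fetal minus maternal log2 responses. No member of the granulocyte precursor genes was among them. The primary granule list differed by a median of 0.22 over its 8 genes measured at both stages, and Serpinb1a in that list by 1.39 (fetal 0.22 and 0.20, maternal -1.18 and -1.18). The monocyte and macrophage list differed by a median of 0.61, and its gene Cd5l by 1.06. The acute phase list differed by 0.29, and Saa4, a serum amyloid A gene, by 1.94. The adult hepatocyte list differed by 0.88, with Cyp7a1 and Cyp8b1, enzymes that make bile acids, at 2.24 and -1.54. Dntt, the terminal transferase of lymphoid precursors, differed by -1.22.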

How the results depend on the processing

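No fetal over maternal level of a member, and no median of them, changed sign under any alternative. Responses that were not called did so in 28 cases, among them Ltf in the fetus (0.05 with median centring, against -0.24), the response difference of Ltf (0.96 with processed signals, against -0.06) and of S100a9 (0.23 without array 2, against -0.18), and the members' median response difference (main value -0.06, other values below). The count of members called was 0 in both directions for the fetal response and for the response difference in every setting run, and 0 for the maternal response except that 1 member, Ltf, was called lower with the scanner software's processed signals and with the deposited series table. For the control level 7 members were called higher in every setting except 9 with flagged spots kept and 4 where both stages had to be well above background; for the FD level the count was then 2. The members' median control ratio was 6.30 with an offset of 16, 8.16 with processed signals, 6.08 with the stained background replaced and 6.34 with both stages well above background, and the FD ratio was 6.56, 8.67, 6.31 and 6.35 in the same order of settings. With median centring the members' median was 0.24 for the fetal response and 0.21 for the response difference, and with processed signals 0.24 for the response difference. Over all genes, processed signals called 399 in the fetus, 1450 in the mother, 1211 for the difference, 7325 for the control level and 6942 for the FD level, the deposited table called 408 and 1476, and median centring called 127 in the mother; the cause was not tested. Leaving out array 1 or 2 gave medians of -0.04 to -0.03 (fetus), -0.08 to 0.02 (mother), -0.14 to 0.01 (difference), 5.60 to 5.80 (control level) and 5.67 to 5.89 (FD level). No paired analysis was possible because no test was made: the numbers 1 and 2 go with the dye orientation and were taken to mark the same pools, which the labels do not settle. Weak signal over background limits the maternal values of Ela2, Ngp, Camp, Ltf and Prtn3.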
